A study of Mus musculus with 16 samples.

Results

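The 10 genes followed here are Klk6, Ninj2, Ly6g6f, Carns1, Galnt6, Smtnl2, Slc34a3, Lctl, Xrcc3 and Ccp110, transcripts of the mouse corpus callosum that were picked because they were low after feeding of cuprizone (CPZ), out of 13985 named genes tested. They are measured by 12 probes of the array, with 2 probes each for Galnt6 and Ccp110 and 1 for each of the others. All 12 probes entered the fit, since each was well above background on all 3 control arrays, and a gene is given by its probe with the highest mean signal. Since they were selected on the fall itself, their values under CPZ are a description. The question asked of them is whether they return when the diet is changed back.

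RNA was taken from the corpus callosum of male C57BL/6 mice. Untreated controls gave 3 arrays, 2 weeks of CPZ gave 3 arrays, 4 weeks of CPZ gave 4 arrays, and 4 weeks of CPZ followed by regular diet gave 6 arrays. By the methods, the controls matched the group of 4 weeks of CPZ in age and sex, and no match in age to the other groups is stated. CPZ was mixed into powdered chow at 0.2% by the methods and at 0.2 to 0.4% by the labels. The methods give an age of 7 to 8 weeks without saying at which point of the experiment. The methods describe regular diet of 2 days and of 14 days, with n = 3 at each by a figure legend, whereas the labels carry 1 group of 6 arrays with no time. Those 6 arrays were therefore kept as 1 group, and the value of each is given. The methods give 3 to 6 mice per condition and the labels do not say whether an array holds 1 mouse, so the p-values measure only the spread between arrays. Values are log2 signals scaled to the 75th percentile of the array and set against the median of the 3 controls for each probe, so that -1 is 50% of the control median.

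CPZ is a copper chelator that kills oligodendrocytes, the cells that wrap axons in myelin. When the agent is withdrawn, oligodendrocyte precursors (OPC) divide and differentiate, and new myelin forms. Mature oligodendrocytes pass through successive transcriptional stages, in which the transcription factors Sox10 and Myrf switch on myelin genes, and a further set of transcripts comes on late in cells that already hold myelin. In pieces of whole tissue, fewer cells of a type and less RNA per cell cannot be told apart.

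The genes lie on 9 chromosomes of GRCm38.p6, and Klk6 and Ccp110 share chromosome 7 without being neighbours. RefSeq promoter windows of 300 bases, from 250 bases before to 50 after a start site, were matched by symbol for 9 of the 10 genes, with 11 windows in all. Carns1 was not matched. The windows were searched on both strands for a pair of Myrf motifs, a pair of Sox motifs and an E box, and 0 matches in them overlapped another match. The Myrf motif CTGGCAC occurred in the window of 1 of the 9 genes (Lctl) and in 5.01% of all 32851 windows, and CTGGTAC in 0 of the 9 and in 2.24% of all. AACAAT, a Sox motif, occurred in 1 gene (Klk6) and in 10.72% of all windows. AACAAAG occurred in 2 genes (Galnt6 and Lctl) and in 5.85% of all. The E box CAGCTG occurred in 3 genes (Ninj2, Slc34a3 and Lctl) and in 16.3% of all. A match of letters is not a bound site. The stretches before the gene start are printed for Ninj2, the gene closest to the common profile, and for Lctl, the gene with the Myrf motif, each on the plus strand, 5′ to 3′, with motifs in capitals. That of Ninj2 covers chr6:120093130-120093379 and holds the E box. That of Lctl covers chr9:64116897-64117122 and holds the E box and, on the minus strand and so read here as its reverse complement, the Myrf motif.
Ninj2: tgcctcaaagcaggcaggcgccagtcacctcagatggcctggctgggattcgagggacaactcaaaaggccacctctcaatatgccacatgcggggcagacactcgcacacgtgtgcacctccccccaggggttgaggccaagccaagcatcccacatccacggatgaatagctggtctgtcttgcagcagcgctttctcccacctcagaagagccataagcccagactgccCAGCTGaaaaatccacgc
Lctl: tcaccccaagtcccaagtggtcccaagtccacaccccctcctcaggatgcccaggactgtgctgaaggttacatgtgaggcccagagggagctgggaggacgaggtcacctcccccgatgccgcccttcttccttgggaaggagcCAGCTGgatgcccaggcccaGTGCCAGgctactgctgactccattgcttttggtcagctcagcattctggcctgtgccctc

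On regular diet the 6 arrays fell apart into lower and higher values for each of the 10 genes, with a widest gap between neighbours of 1.73 (Xrcc3) to 3.40 (Smtnl2) on the log2 scale. For Smtnl2, Lctl and Ly6g6f the lower edge of the gap was not well above background, so the size of these gaps is not exact. Regular diet arrays 1, 2 and 3 each lay below all 3 controls for 10 of 10 genes, where 34.3, 35.9 and 23.7% of all tested probes did so on these arrays. Arrays 4, 5 and 6 each lay above all 4 arrays of 4 weeks of CPZ for 10 of 10 genes, where 17.8, 16.7 and 22.3% of all tested probes did so. Array 5 was below all controls for 3 of them (Ly6g6f, Smtnl2 and Ccp110), where 23.5% of all tested probes were. The control and 4-week arrays took part in the choice of the genes. The shares of all probes are therefore no fair measure for these counts, which are a description. The median of the 10 genes was -2.82, -2.98 and -2.52 on arrays 1, 2 and 3, against 0.11, -0.19 and 0.59 on arrays 4, 5 and 6. Placed on the distance from the 4-week mean (0%) to the control mean (100%), the median of the genes was -15.1, -17.8 and -1.53% on the first 3 of these arrays and 100.3, 93.0 and 120.2% on the other 3. On arrays 1, 2 and 3, 6, 5 and 8 of the 10 genes were well above background, so the medians there rest in part on background signal. The widest gap between neighbouring values separated arrays 1, 2 and 3 from the others for 9 genes, and for Smtnl2 it set arrays 1 and 2 apart from the other 4. The labels do not say what distinguishes these arrays. With the scanner files taken under the sample recorded for each, in place of the columns of the deposited table, all 8 genes that passed the filter there (Ly6g6f and Lctl did not) were higher at 2 weeks of CPZ than in controls and lower on regular diet than at 4 weeks, and every direction given here rests on the columns.

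**Figure D1:**
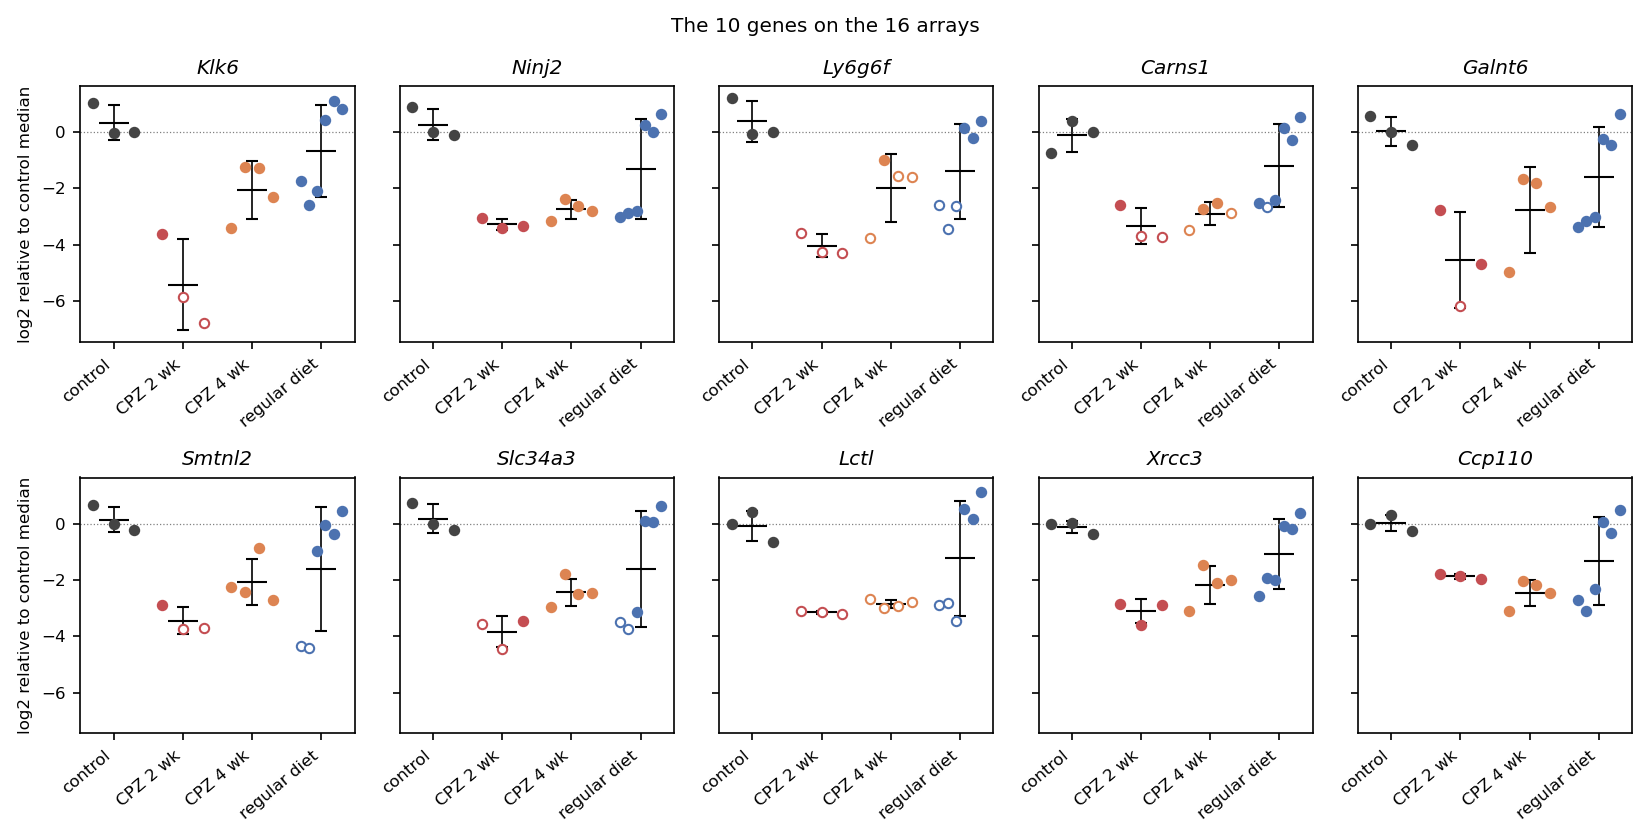
Each panel plots 1 gene on the 16 arrays, as log2 signal relative to the control median, by group. Points are arrays in the order of their labels, open points are not well above background, and bars are the mean and SD of 3, 3, 4 and 6 arrays. Regular diet arrays 1, 2 and 3 sit below every control in each panel, and arrays 4, 5 and 6 sit above every 4-week array.

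Klk6, a secreted serine protease of the kallikrein family that oligodendrocytes are known to make, showed the lowest value of all. The 3 controls read 1.04, -0.04 and 0.00. The arrays of 2 weeks of CPZ read -3.63, -5.85 and -6.79, and those of 4 weeks -3.41, -1.25, -1.29 and -2.30. On regular diet the 6 arrays read -1.73, -2.57, -2.08, 0.42, 1.096 and 0.84. All CPZ arrays were below all controls, the 2-week arrays were below all 4-week arrays, and array 5 of regular diet was above every control. The probe was well above background on 1 of the 3 arrays of 2 weeks and on every other array. The second lowest mean at 2 weeks was that of Galnt6. The lowest value of Klk6 (-6.79) was not well above background, nor was Ly6g6f on any array of 2 weeks. The order of the genes at 2 weeks is therefore not exact.

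Ninj2 and Ly6g6f encode membrane proteins. Ninj2 is a ninjurin, a homophilic adhesion molecule, and Ly6g6f is an immunoglobulin-like protein encoded in the class III region of the major histocompatibility complex. Ninj2 read 0.89, 0.00 and -0.12 in controls, -3.05, -3.42 and -3.35 at 2 weeks, -3.17, -2.37, -2.61 and -2.81 at 4 weeks, and -3.03, -2.87, -2.81, 0.25, 0.01 and 0.65 on regular diet. It was well above background on all 16 arrays, and its 6 regular diet values fall into 3 within the range of 4 weeks and 3 within the range of the controls. Ly6g6f read 1.23, -0.06 and 0.00 in controls, -3.57, -4.24 and -4.31 at 2 weeks, -3.76, -0.99, -1.57 and -1.60 at 4 weeks, and -2.60, -3.45, -2.64, 0.15, -0.20 and 0.41 on regular diet. The probe of Ly6g6f was well above background on none of the 2-week arrays, on 1 of 4 at 4 weeks and on 3 of 6 on regular diet, so that its level at 2 weeks is a bound, at least 6.41-fold lower than in controls.

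Carns1, Galnt6 and Lctl belong to families of enzymes. Carns1 joins beta-alanine and histidine into carnosine, Galnt6 adds the first sugar of mucin-type O-glycans, and Lctl is a membrane protein of the klotho and lactase family of glycosidases. Carns1 read -0.75, 0.40 and 0.00 in controls, -2.59, -3.70 and -3.71 at 2 weeks, -3.48, -2.73, -2.53 and -2.86 at 4 weeks, and -2.53, -2.65, -2.39, 0.15, -0.27 and 0.55 on regular diet. It was well above background on 1 of 3, 2 of 4 and 5 of 6 arrays of these 3 groups. Galnt6 read 0.57, 0.00 and -0.47 in controls, -2.77, -6.18 and -4.68 at 2 weeks, -4.98, -1.66, -1.80 and -2.65 at 4 weeks, and -3.37, -3.17, -3.00, -0.25, -0.46 and 0.64 on regular diet. Array 1 of 4 weeks was lower than 2 of the 3 arrays of 2 weeks, so these groups overlap. The second probe of Galnt6 read -2.35, -2.38, -2.70, -0.26, -0.39 and 0.56 on regular diet, where arrays 4 and 5 lay below all 3 controls (-0.09 to 0.15), unlike with the first probe.

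Lctl was the dimmest of the 10. It read 0.00, 0.43 and -0.64 in controls and was well above background on no array of either CPZ group, where its values lay between -3.20 and -2.69. On regular diet it read -2.90, -2.81, -3.48, 0.54, 0.16 and 1.12, and it was well above background on the 3 higher arrays alone. The level of Lctl in controls was at least 1.77-fold that at 2 weeks and at least 1.42-fold that at 4 weeks. The values of Lctl under CPZ are at background and have no order.

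Slc34a3 is a sodium-dependent phosphate cotransporter best known from the kidney, and Smtnl2 is a smoothelin-like protein with a calponin homology domain. Slc34a3 read 0.75, 0.00 and -0.24 in controls, -3.58, -4.46 and -3.45 at 2 weeks, -2.96, -1.80, -2.49 and -2.48 at 4 weeks, and -3.50, -3.76, -3.15, 0.08, 0.06 and 0.63 on regular diet. Slc34a3 was well above background on 1 of 3 arrays of 2 weeks, on all 4 of 4 weeks and on 4 of 6 on regular diet, where arrays 1 and 2 were not. Smtnl2 read 0.65, 0.00 and -0.22 in controls, -2.91, -3.75 and -3.71 at 2 weeks, -2.24, -2.41, -0.87 and -2.72 at 4 weeks, and -4.36, -4.42, -0.96, -0.04, -0.36 and 0.45 on regular diet. Smtnl2 was not well above background on regular diet arrays 1 and 2 or on 2-week arrays 2 and 3, so these values have no order, while array 3 was at 49.7% of the distance to the control mean.

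Xrcc3 and Ccp110 act in processes of every cell, recombination repair of DNA and the capping of centrioles, which holds back cilia. Both were well above background on all 16 arrays. Xrcc3 read 0.00, 0.02 and -0.35 in controls, -2.85, -3.61 and -2.88 at 2 weeks, -3.09, -1.48, -2.11 and -2.01 at 4 weeks, and -2.56, -1.92, -2.01, -0.10, -0.18 and 0.40 on regular diet. Ccp110 read 0.00, 0.31 and -0.25 in controls, -1.79, -1.87 and -1.97 at 2 weeks, -3.09, -2.05, -2.19 and -2.46 at 4 weeks, and -2.73, -3.09, -2.32, 0.04, -0.34 and 0.50 on regular diet. For Ccp110 alone among the 10 genes, every 4-week array was below every 2-week array. With its second probe the 2 groups overlapped.

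At 2 weeks of CPZ the 10 genes differed from controls by -1.90 (Ccp110) to -5.76 (Klk6) on the log2 scale, with a median of -3.56. Ninj2 (-3.53), Xrcc3 (-3.00) and Ccp110 (-1.90) were well above background on all 3 arrays of 2 weeks, Galnt6 on 2, Klk6, Carns1, Smtnl2 and Slc34a3 on 1, and Ly6g6f and Lctl on 0, so that for these 7 genes the size of the difference rests in part or wholly on background signal. At 4 weeks the differences ran from -2.07 (Xrcc3) to -3.00 (Ninj2), with a median of -2.54. All 10 genes had every CPZ array below every control at both times, where 8.92% of the 27781 tested probes did so at 2 weeks and 4.69% at 4 weeks, and 8.41% and 5.35% lay wholly above the controls. That separation is what they were picked for. By limma with Benjamini-Hochberg adjustment over all tested probes and a 2-fold threshold, 0.0936% of probes were called at 2 weeks and 0.0108% at 4 weeks, all of them higher, and 2670 and 3064 probes had an unadjusted p under 0.05. The direction of the calls depended on the processing. Median scaling kept all of them higher (4 and 9). Without the regular diet arrays 19 were higher and 33 lower at 2 weeks, and 25 and 22 at 4 weeks. Array weights estimated gene by gene gave 954 and 530, and 736 and 1107. With normexp background correction of the spot signals the falls were smaller, from -0.72 to -2.64 at 2 weeks and from -0.54 to -1.87 at 4 weeks.

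Between 2 and 4 weeks of CPZ, 8 of the 9 genes other than Lctl, which was at background in both groups, had the higher mean at 4 weeks, and 0 of the 10 passed the test, where 0.209% of all probes were called (0.0648% higher and 0.144% lower at 4 weeks). The arrays of both groups took part in the choice of the genes. Klk6 differed most, by 3.36 (SE 0.96, 95% confidence interval 1.30 to 5.42, limma adjusted p = 0.147), with no overlap between groups and a difference of 4.07 within the 1 slide that held both. Its means were -5.42 ± 1.62 (SD, n = 3) at 2 weeks and -2.06 ± 1.02 (SD, n = 4) at 4 weeks. Since only 1 of the 3 arrays of 2 weeks was well above background for Klk6, the size and rank of its difference rest in part on background signal. The difference of 4.07 was taken from a single array of 2 weeks that was not well above background, so it is no exact size. Slc34a3 (1.40, SE 0.97, adjusted p = 0.477) and Smtnl2 (1.40, SE 1.05, adjusted p = 0.522) also lay higher at 4 weeks on every array. Both were well above background on 1 of the 3 arrays of 2 weeks, so these sizes rest in part on background signal as well. Ccp110 lay lower at 4 weeks on every array (-0.57, SE 0.74). Over all probes, 5.45% lay wholly above and 8.30% wholly below. Ly6g6f was well above background on 0 of 3 arrays at 2 weeks and 1 of 4 at 4 weeks, so no fold is given for it (limma adjusted p = 0.268). With array weights estimated gene by gene, 3 of the 10 genes (Klk6, Ly6g6f and Galnt6) were called, where 7.85% of all probes were.

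Regular diet was then compared with 4 weeks of CPZ over all 6 arrays. The 4-week arrays took part in the choice of the genes for low values, so a higher mean on regular diet is no independent evidence of a return. Each of the 10 genes had the higher mean on regular diet, by 0.44 (Smtnl2) to 1.71 (Carns1), and 0 of the 10 were called by limma, where 0.0036% of all probes (1 probe) were called and 6869 had an unadjusted p under 0.05. Carns1 came nearest, at -1.19 ± 1.49 (SD, n = 6) against -2.90 ± 0.41 (SD, n = 4), a difference of 1.71 with a 95% confidence interval of 0.38 to 3.04 and an adjusted p of 0.132. It was the only gene of the 10 with an unadjusted p under 0.05. Carns1 was well above background on 2 of 4 arrays at 4 weeks and on 5 of 6 on regular diet. Its difference, SDs and interval therefore rest in part on background signal. The same holds for Ly6g6f (1 of 4 and 3 of 6) and, on regular diet, for Slc34a3 and Smtnl2 (4 of 6 each). Ninj2 differed by 1.44 (interval -0.06 to 2.95, adjusted p = 0.216) and Xrcc3 by 1.11 (interval -0.03 to 2.25, adjusted p = 0.211). Lctl had means of -1.23 and -2.85 (adjusted p = 0.221), of which the second is at background. The intervals of Klk6 (-0.35 to 3.13), Ccp110 (-0.21 to 2.46), Galnt6 (-0.81 to 3.15), Slc34a3 (-0.93 to 2.59), Ly6g6f (-1.05 to 2.24) and Smtnl2 (-1.47 to 2.35) include 0 as well as large rises. No gene had its groups apart, where 4.21% of all probes lay wholly above and 3.42% wholly below.

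The SD of the 6 regular diet arrays was 1.24 (Xrcc3) to 2.20 (Smtnl2), larger for each gene than the SD of its 4 arrays of 4 weeks, which was 0.14 (Lctl) to 1.54 (Galnt6). All 4-week values of Lctl were at background, so its SD of 0.14 is not the spread of the gene. Ninj2, well above background on all 16 arrays, had an SD of 0.34 at 4 weeks. The SD of 2.20 for Smtnl2 rests in part on background signal. Within the 3 slides that held arrays of both groups, the difference ran from 0.40 to 2.08 for Carns1, from -0.22 to 1.66 for Ninj2, from -0.31 to 3.10 for Klk6 and from -1.12 to 1.60 for Smtnl2. Weights estimated gene by gene, which ranged from 0.230 to 7.81 among arrays, called 9 of the 10 genes, all but Ly6g6f, where 8.01% of all probes were called. They gave regular diet arrays 1 to 6 weights of 0.50, 0.37, 1.13, 3.39, 3.92 and 1.17. The default estimate of the weights, which did not converge, called 1 gene (Carns1), where 5.63% of all probes were called. Leaving out any 1 of the 16 arrays called none of the 10 genes, where 0 to 1549 of all tested probes were called. The highest of these counts came without 4-week array 1.

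**Figure D2:**
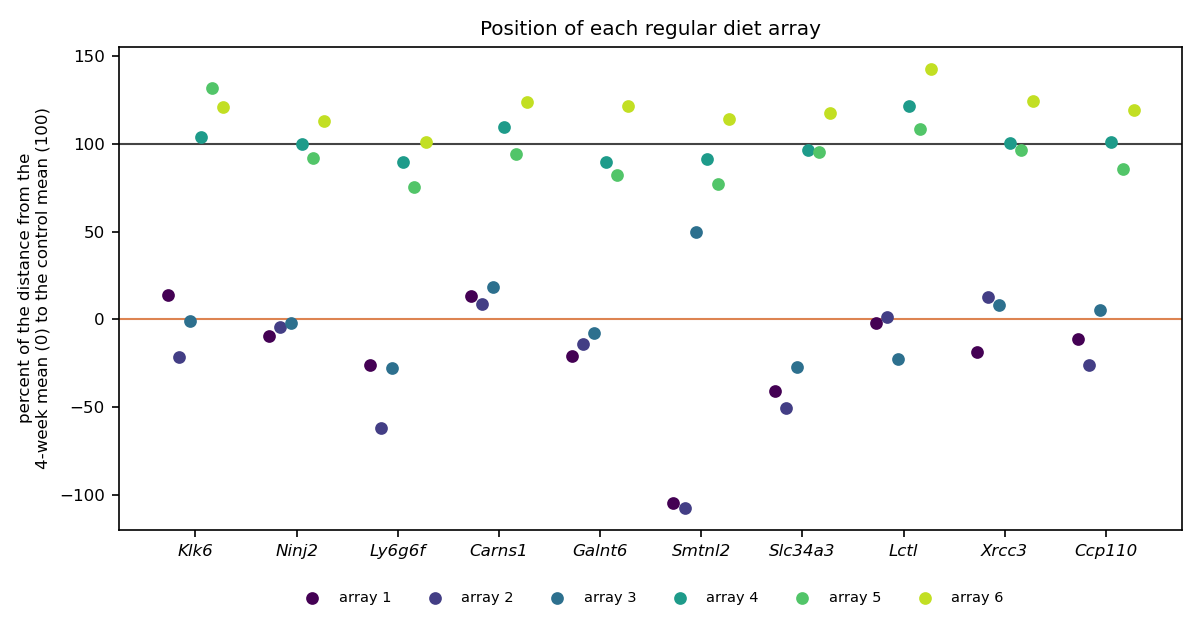
Each point is 1 regular diet array for 1 gene, placed as percent of the log2 distance from the mean of the 4-week arrays (0, orange line) to the mean of the controls (100, dark line). Arrays 4, 5 and 6 lie between 75.4 and 142.8%, and arrays 1, 2 and 3 between -107.4 and 49.7%. The outer ends, Lctl at 142.8% and Smtnl2 at -107.4%, rest on background signal, of Lctl in the 4-week mean and of Smtnl2 on array 2, and are no exact distances.

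Against controls, each of the 10 genes had the lower mean on regular diet, by 0.95 to 1.78 in size on the log2 scale with a median of -1.45, and 0 of the 10 were called, where 0.803% of all probes were (0.792% higher and 0.0108% lower). Wholly above the controls lay 4.93% of all probes and wholly below 3.78%, and 0 of the 10 genes did either. The control arrays took part in the choice of the genes. Slc34a3, well above background on 4 of the 6, differed by -1.78 (SE 0.90, adjusted p = 0.499), Ly6g6f, well above background on 3 of the 6 regular diet arrays, by -1.77 (SE 0.84, adjusted p = 0.477), Klk6 by -1.01 (SE 0.89, adjusted p = 0.642) and Xrcc3 by -0.95 (SE 0.58, adjusted p = 0.556). All 10 intervals reach from a clear deficit to past 0, for Slc34a3 from -3.70 to 0.15, so that equality with controls is not shown either. Under array weights the mean of Klk6 was above controls, by 0.12 with the default and 0.20 with the gene-by-gene estimate, and that of Lctl by 0.05 with the default. Of the 3 slides that held both groups, all 3 had negative differences for 7 of the genes, Klk6 among them (-0.83 to -0.32). On 1 slide Carns1 (0.90), Lctl (0.54) and Ccp110 (0.04) lay above the control.

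Marker lists were read on the same arrays, and none of their genes was called in any of the 5 comparisons. The list of myelin sheath and myelin lipid synthesis genes (16 of 17 tested) had a median difference of -3.25 at 2 weeks, -2.70 at 4 weeks, 1.03 for regular diet against 4 weeks and -1.57 for regular diet against controls. The medians over all tested probes were 0.04, -0.03, 0.01 and -0.02. The medians of the 10 genes, -3.56, -2.54, 1.15 and -1.45, stand beside these with no test between them. On the 6 regular diet arrays the myelin list read -3.52, -3.61, -2.97, -0.14, -0.14 and 0.51, which splits them into the same lower and higher arrays as the 10 genes do. Its largest differences between regular diet and 4 weeks were those of Opalin (1.42, adjusted p = 0.479) and Mal (1.36, adjusted p = 0.466), both membrane proteins of myelin. The list of late mature oligodendrocyte genes (14 of 15 tested) read -2.76, -2.61, -2.22, 0.04, -0.19 and 0.59 on these arrays.

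Lists of earlier stages were read in the same way. Newly formed and premyelinating oligodendrocyte genes (9 of 10 tested) had a median difference of -0.33 at 2 weeks, -0.70 at 4 weeks, 0.67 for regular diet against 4 weeks and 0.05 for regular diet against controls. OPC genes (10 of 10) had -0.38, -0.21, 0.25 and 0.04 in the same order. The late mature oligodendrocyte list had -2.09, -1.95, 0.35 and -1.34, and no difference between lists was tested. On the 6 regular diet arrays the OPC list stayed between -0.25 and 0.34. The oligodendrocyte transcription factors (9 of 10), Sox10 and Myrf among them, had -0.85, -1.24, 0.46 and -0.61, and read -1.18, -1.13, -0.97, -0.13, -0.09 and 0.57 on regular diet. No call was made in either direction in these 3 lists.

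Markers of other cells also differed among the arrays. The microglia list (12 of 13 tested) read 4.12 and 4.45 on regular diet arrays 1 and 2, where the median of the 10 genes was lowest among the 6, and 1.34, 1.35, 1.76 and 1.39 on arrays 3 to 6. Its summed level ranged from 34.8 to 73.8 times the 75th percentile in controls, 57.1 to 135.1 at 2 weeks, 91.2 to 232.3 at 4 weeks and 106.4 to 1067 on regular diet, with 12 of 12 markers above background on every array. Regular diet array 3 had the 10 genes at -2.52 with a microglia value close to that of arrays 4 and 6. The choroid plexus list (8 of 8) ranged from -1.13 to 1.25 in controls, -1.07 to 1.36 at 2 weeks, -2.85 to 3.28 at 4 weeks and -2.36 to 3.03 on regular diet. At 4 weeks, array 1 had the lowest choroid plexus value and the lowest median of the 10 genes (-3.13). On regular diet, array 3 had a choroid plexus value of 1.64 with the genes at -2.52, and array 5 had -0.71 with the genes at -0.19. Arrays 1, 2, 4 and 6 had choroid plexus values of -2.36, -1.09, 3.03 and 0.47 with the genes at -2.82, -2.98, 0.11 and 0.59. The astrocyte list (8 of 8) stayed between -0.35 and 0.75, the neuron list (10 of 10) between -1.14 and 0.56, the endothelial list (8 of 8) between -0.91 and 0.50, and the red blood cell list (4 of 7) between -1.06 and 1.31, over all 16 arrays. The part of these cells in the values of the 10 genes was not tested.

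**Figure D3:**
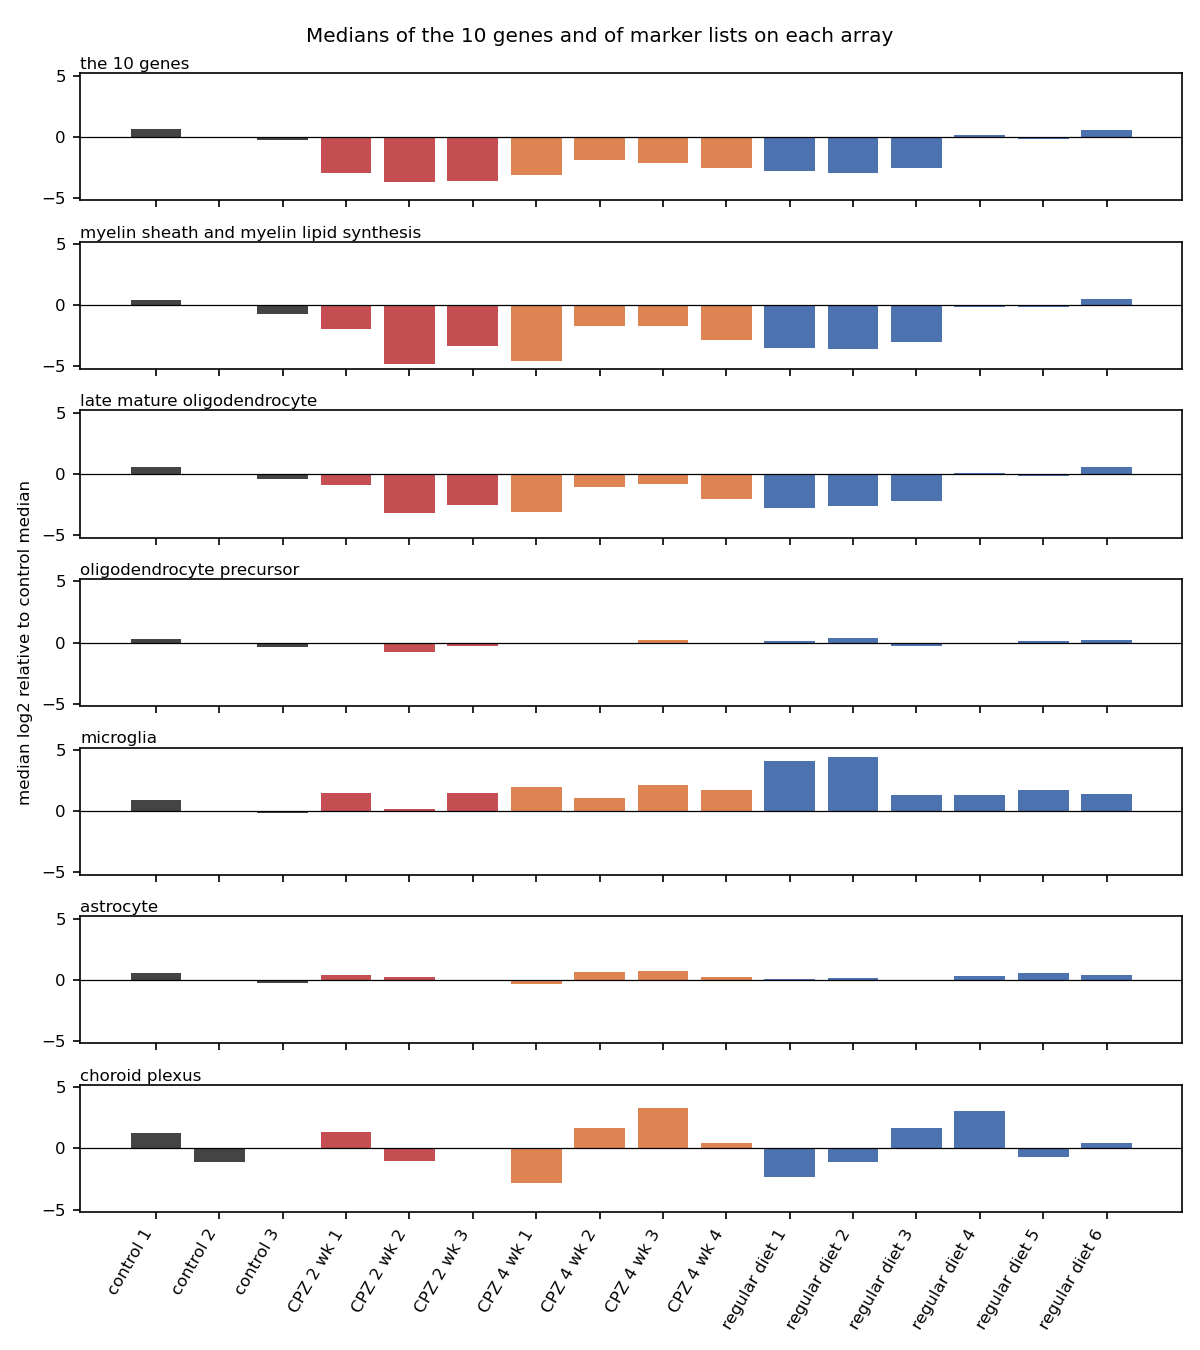
Bars are the median over genes of the log2 value relative to the control median on each of the 16 arrays, for the 10 genes and for 6 marker lists. The bars of the myelin and late mature oligodendrocyte lists split the 6 regular diet arrays into the same lower and higher arrays as the 10 genes do, the microglia bars are highest on regular diet arrays 1 and 2, and the choroid plexus bars vary within every group.

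Relatives of the 10 genes, which share a family or a pathway with them, were also on the array. Of 63 listed, 43 were tested and 0 were called in any of the 5 comparisons. Their median difference was -0.15 at 2 weeks (range -0.76 to 0.47) and 0.11 at 4 weeks (range -1.26 to 1.14), and on regular diet it was -0.11 against 4 weeks (range -2.35 to 1.02) and -0.06 against controls (range -1.43 to 1.41). The 15 tested relatives of Galnt6, other transferases of O-glycan synthesis, had a median of -0.18 at 2 weeks, and the 5 of Klk6, other kallikreins and a thrombin receptor, 0.01. Ninj1, the other ninjurin, differed by -0.27, and the 4 genes around Ly6g6f had a median of -0.39. The 4 partners of Ccp110 at the centriole had a median of -0.004 and the 3 genes of carnosine handling -0.01. The 3 phosphate transporters had a median of 0.05, the 2 relatives of Lctl 0.04, and Smtn, the relative of Smtnl2, a difference of -0.61.

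**Figure D4:**
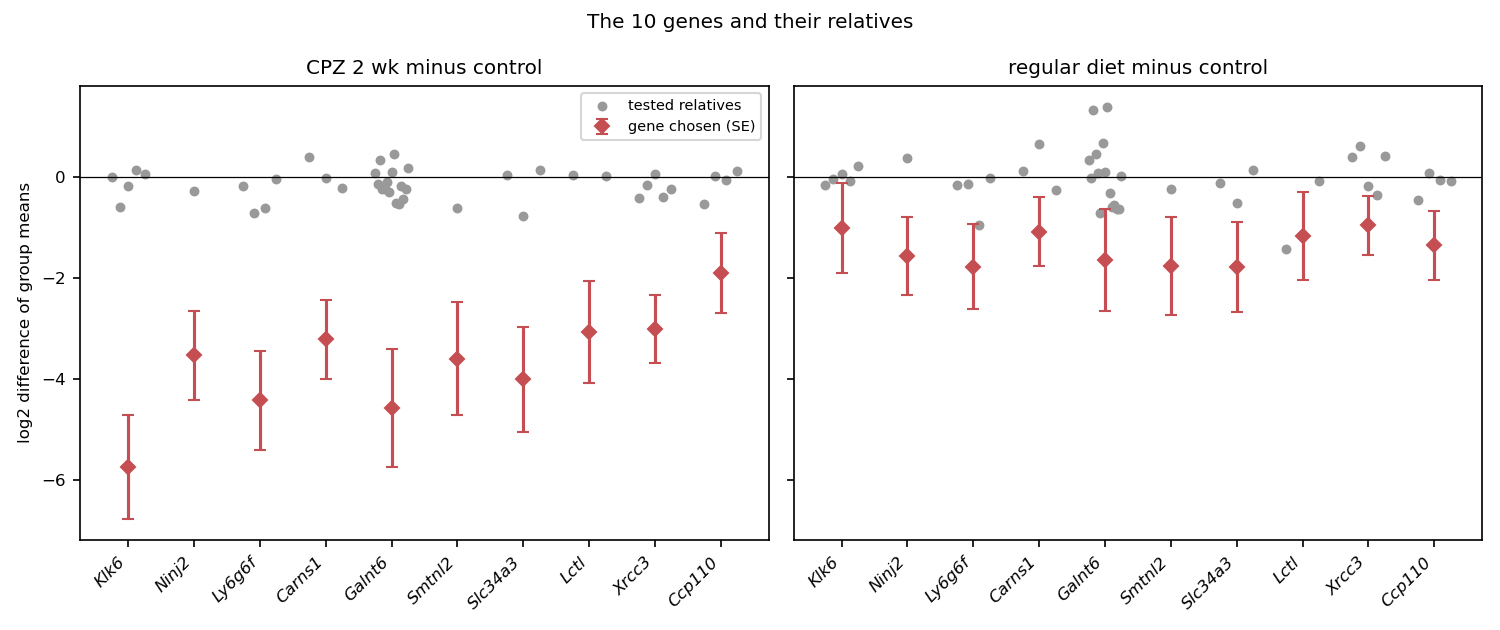
Diamonds give the log2 difference of each of the 10 genes with its standard error, and grey points their tested relatives, for 2 weeks of CPZ minus control (left) and regular diet minus control (right). At 2 weeks the relatives lie between -0.76 and 0.47 and the 10 genes between -5.76 and -1.90, which is the fall they were picked for, and on regular diet the ranges overlap, at -1.43 to 1.41 for the relatives and -1.78 to -0.95 for the 10 genes.

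The likeness of the 10 genes over the 16 arrays is a description, since genes chosen for the same fall must resemble each other on the control and CPZ arrays. Pearson's r with their median, to which each gene contributes, was 0.993 for Ninj2, 0.982 for Slc34a3 and 0.980 for Xrcc3, and 0.875 for Smtnl2, the lowest, and between the 45 pairs of genes it ran from 0.665 to 0.974 with a median of 0.905. These values describe arrays that share their slides, their scaling and the 4 groups. Among 20956 probes of other named genes, the 10 closest to the median of the set were Sgk2 (0.978), Prima1 (0.976), Fndc11 (0.975), Nmral1 (0.975), Dhcr7 (0.974), Gamt (0.972), Pigz (0.972), Cdc42ep2 (0.969), Aspa (0.969) and Anln (0.967). Sgk2 is a serine and threonine kinase, Dhcr7 makes cholesterol, Gamt makes creatine, and Aspa cleaves N-acetylaspartate in oligodendrocytes. Sgk2 differed from controls by -4.11 at 2 weeks and -3.25 at 4 weeks, and by -1.69 on regular diet. Aspa and Anln also stand in the myelin and late mature oligodendrocyte lists. On regular diet these 10 had means -0.70 (Cdc42ep2) to -1.69 (Sgk2) from controls, where the 10 genes of the set had -0.95 to -1.78.

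Array quality was read from the share of probes well above background, which was 57.3 to 70.9% in controls, 69.1 to 69.7% at 2 weeks, 59.2 to 66.3% at 4 weeks and 65.0 to 72.2% on regular diet. Across all probes the correlation between arrays of a group was 0.905 to 0.984 in controls, 0.941 to 0.977 at 2 weeks, 0.867 to 0.978 at 4 weeks and 0.935 to 0.991 on regular diet. The 16 arrays lay on 4 slides of 4, and the 3 lower regular diet arrays lay on 3 different slides, as did the 3 higher ones.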

How the data were processed

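Spot intensities of single-colour Agilent arrays were deposited by the authors, who quantified them with Agilent Feature Extraction (version 11.0.1.1 in the submitters' processing notes). A second file that the authors deposited holds log2 values, which proved to be scaled to the 75th percentile and set against the control median of each probe (100% of probes had a control median of 0). That table was used here. The sample recorded for a scanner file differed from the table column for 14 of 16 arrays, 13 of them in another group. Flags and slides were therefore taken from the scanner file that matched each column (r = 1.00, next best 0.883, over 21983 probes), which departs from the recorded assignment. The running number in the name of the matched file equalled the sample's place in the series for 16 of 16 columns, against 2 of 16 as recorded.

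Of 41153 probes, 27781 passed the filter (well above background throughout 1 or more groups) and were fitted with limma 3.58.1 in R 4.3.3 (16 arrays, 4 groups, residual degrees of freedom 12, prior 2.33, median residual SD 0.386). Probes were called at a 2-fold change with a p under 0.05 after Benjamini-Hochberg adjustment. The model was tested on simulated data. Names came from matching accessions to RefSeq (GRCm38.p6), with 66.7% of probes named. Bounds used the lowest signal well above background. The genes, lists and motifs were chosen with earlier results of these data known. Named genes are the 10 with all their probes, list and family members by count and median, up to 2 of a list by size of change, and the 10 most correlated probes. Lists cover myelin, late mature, premyelinating and precursor oligodendrocyte genes, transcription factors, microglia, astrocytes, neurons, endothelium, choroid plexus, red blood cells and relatives of the 10 genes. Alternatives changed the source, scaling, background correction, filter, slide, replicate block, weights, samples and test, and left out each array. Normexp with an offset of 50 used gMedianSignal, since no mean signal was used here. The analysis without the regular diet arrays and that with weights estimated gene by gene were added after results were seen.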

Additional observations from a re-analysis of the deposited data

How the results depend on the processing

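The counts of probes called by limma depended on the processing. In the order 2 weeks against control, 4 weeks against control, 4 weeks against 2 weeks, regular diet against 4 weeks and regular diet against control, they were 26, 3, 58, 1 and 223. With scanner signals of the matched array they were 27, 3, 58, 1 and 222. With quantile normalization they were 6, 4, 141, 323 and 163. With median scaling they were 4, 9, 208, 1274 and 128. With normexp background correction they were 3, 0, 0, 0 and 41. With scanner files as recorded they were 0, 0, 0, 0 and 0. With no filter on dim probes they were 26, 2, 64, 8 and 184. With only probes well above background on all arrays they were 11, 3, 1, 0 and 115. With slide as a fixed block they were 42, 61, 20, 0 and 266. With slide as a random block they were 66, 25, 66, 8 and 328. With the replicate block they were 0, 0, 0, 0 and 24. With array weights they were 1943, 1682, 2870, 1564 and 1071. With only the 2 groups compared they were 0, 0, 24, 141 and 145. With the methods' test they were 18, 10, 11, 4 and 12. With array weights estimated gene by gene they were 1484, 1843, 2182, 2224 and 680. Without the regular diet arrays the first 3 were 52, 47 and 3. Leaving out 1 array at a time gave 0 to 78, 1 to 215, 0 to 466, 0 to 1549 and 5 to 242. The highest counts came without 2-week array 2, control array 1, control array 1, 4-week array 1 and 2-week array 2 in turn. The lowest came without 2-week array 1 for 2 weeks against control and 4 weeks against 2 weeks, without control array 3 for 4 weeks against control (among others) and regular diet against control, and without 4-week array 2, among others, for regular diet against 4 weeks. The cause was not tested.

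None of the genes tested was called in the 3 comparisons under any alternative but the array weights. All 10 were tested in each, except 3 with only probes well above background on all arrays and 8 with scanner files as recorded. The default weights, which did not converge and ran from 0.180 to 210.4, called 1 gene for regular diet against 4 weeks (5.63% of all probes) and 2 for 4 weeks against 2 weeks (10.3%), and those estimated gene by gene called 9 (8.01%) and 3 (7.85%). With normexp background correction, values of the opposite sign were, for regular diet against 4 weeks of CPZ, Ly6g6f -0.054, Lctl -0.033. With scanner files as recorded, values of the opposite sign were, for 2 weeks of CPZ against control, Klk6 3.12, Ninj2 1.27, Carns1 1.74, Galnt6 1.83, Smtnl2 1.84, Slc34a3 1.499, Xrcc3 1.30, Ccp110 0.70, and for 4 weeks of CPZ against control, Klk6 2.75, Ninj2 1.09, Carns1 1.72, Galnt6 1.27, Smtnl2 0.74, Slc34a3 1.11, Xrcc3 1.30, Ccp110 0.41, and for 4 weeks against 2 weeks of CPZ, Klk6 -0.37, Ninj2 -0.18, Carns1 -0.020, Galnt6 -0.56, Smtnl2 -1.10, Slc34a3 -0.39, Xrcc3 -0.0019, and for regular diet against 4 weeks of CPZ, Klk6 -2.39, Ninj2 -2.19, Carns1 -2.32, Galnt6 -2.62, Smtnl2 -1.49, Slc34a3 -2.07, Xrcc3 -1.85, Ccp110 -1.58, and for regular diet against control, Klk6 0.36. With the replicate block, values of the opposite sign were, for 4 weeks against 2 weeks of CPZ, Lctl -0.17, and for regular diet against 4 weeks of CPZ, Ly6g6f -0.15, Smtnl2 -0.39, Slc34a3 -0.15. With array weights, values of the opposite sign were, for regular diet against control, Klk6 0.12, Lctl 0.049. With array weights estimated gene by gene, values of the opposite sign were, for regular diet against control, Klk6 0.20. With quantile normalization, values of the opposite sign were, for 4 weeks against 2 weeks of CPZ, Lctl -0.017. The median return of the genes on regular diet, from group means, was 46.8% of the distance, 32.9 to 59.2% without 1 array at a time, 16.8% with the replicate block, 81.6% with weights estimated gene by gene and 193.8% under the recorded assignment, where all 8 genes tested have the control mean below the 4-week mean. Median scaling moved the median difference of all probes by -0.30 for regular diet against 4 weeks and 0.28 for 4 weeks against 2 weeks. Of the probes called, the share that was higher was 31.0% for 4 weeks against 2 weeks (53.9% with quantile normalization, 57.7% with median scaling) and, for regular diet against 4 weeks, 1 of 1 (152 of 323 and 637 of 1274). It was 3 of 3 for 4 weeks against control (3 of 4 with quantile normalization). Replicate numbers did not pair the arrays (correlation of deviations -0.80 to 0.34, median -0.08, over 19 pairs of the same number), so the replicate block was not used in the text. The number of arrays and the dim probes of Lctl and Ly6g6f limit the precision.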
